A study of Mus musculus with 13 samples.

Results

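The genes described here make cholesterol and fatty acids or control that synthesis. The list holds 29 genes, chosen by name, though with earlier results of these data known. Of these, 28 had a probe set that the platform annotation assigns to a single gene symbol. Acat2 was the exception and enters only the promoter counts below. All 28 passed the filter on low values, out of 12205 genes tested, and each was represented by its probe set with the highest mean over all 13 arrays.

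Expression was measured on Affymetrix mouse arrays in UG26-1B6, a stromal clone from the urogenital ridge of a midgestation mouse embryo that is used to keep blood stem cells in culture. The groups were cells collected by trypsinisation before co-culture (day 0, n = 3), a control taken 24 h after a change of medium (medium control, n = 2), and stroma kept for 1, 2 or 3 days with LSK cells (n = 3, 3 and 2). LSK cells lack lineage markers and carry Sca-1 and c-Kit, a fraction rich in blood stem and progenitor cells. Per the labels' protocols the stroma used for co-culture was confluent and irradiated with 30 Gy, and all stroma was grown in medium with fetal calf and horse serum. The labels do not say if irradiation was also applied at day 0 or in the medium control, or how stroma was parted from LSK cells for RNA extraction. UG26-1B6 is a single clone, and the replicates are called biological in the titles and technical in the series' design text, and each p-value reflects the spread among these arrays, which may be technical.

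Cells build cholesterol from acetyl-CoA through mevalonate, isoprenoid pyrophosphates, squalene and a chain of sterol intermediates, and they build fatty acids from the same acetyl-CoA. Both routes are switched on by the SREBP transcription factors, which are held in the endoplasmic reticulum with their escort SCAP and the retention protein INSIG while sterol is plentiful. When sterol falls, SCAP carries SREBP to the Golgi, where a pair of proteases release the active factor. SREBP works at promoters together with NF-Y, which binds CCAAT, and with Sp1, which binds GC-rich boxes.

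Levels below are deposited log2 values, changes are log2 differences between group means with their standard error (SE), and group means carry their SD. A gene is said to have passed where its Benjamini-Hochberg adjusted p in limma, over all genes tested in that comparison, was under 0.05.

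Promoter sequences were read for the letters of such control elements. RefSeq promoters (build GRCm38.p6, from 250 bases before to 50 bases after a start, 300 bases each) were held for 22 of the 29 listed genes. None was held for Fdps, Fdft1, Sqle, Stard4, Fads1, Scd1 or Scd2. The letters CCAAT, on either strand, occurred in a promoter of 19 of these 22 genes (86.4%) and of 41.1% of all 27025 genes with a promoter. The letters GGGCGG, on either strand, occurred for 20 of the 22 (90.9%) and for 38.2% of all genes. The members' promoters were also richer in G and C, with a median of 62.5% against 52.7% over all promoters. The letters TCACNCCAC, 1 spelling of a sterol response element, occurred in 1 member promoter, that of Hmgcs1, and for 1.44% of all genes. These matches are descriptions of the letters in the window and not measured binding sites. The 4 promoters printed here belong to Mvd, Hmgcs1, Srebf1 and Scap. Mvd was the only member that passed in the fit of all arrays, and Hmgcs1 alone held the sterol element. Srebf1 and Scap had the largest day 1 differences from the medium control among the regulators in the list of 29. Capitals mark CCAAT or its reverse complement and TCACNCCAC or its reverse complement. Mvd lies at chr8:122443373-122443672, minus strand, Hmgcs1 at chr13:119690101-119690400, plus strand, the Srebf1 start shown (1 of 3) at chr11:60210422-60210721, minus strand, and the Scap start shown (1 of 2) at chr9:110333038-110333337, plus strand.
Mvd: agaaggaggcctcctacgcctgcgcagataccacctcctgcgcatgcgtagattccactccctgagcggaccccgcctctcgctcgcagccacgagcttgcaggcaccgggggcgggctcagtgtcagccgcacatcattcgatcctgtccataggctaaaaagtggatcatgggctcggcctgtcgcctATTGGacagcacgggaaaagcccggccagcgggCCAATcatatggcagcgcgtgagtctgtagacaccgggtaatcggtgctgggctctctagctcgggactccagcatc
Hmgcs1: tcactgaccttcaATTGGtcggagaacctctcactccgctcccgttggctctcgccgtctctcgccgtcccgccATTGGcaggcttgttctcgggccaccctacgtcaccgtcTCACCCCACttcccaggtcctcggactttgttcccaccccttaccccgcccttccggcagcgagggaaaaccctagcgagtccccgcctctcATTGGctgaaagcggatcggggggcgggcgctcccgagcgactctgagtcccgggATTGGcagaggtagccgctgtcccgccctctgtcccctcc
Srebf1: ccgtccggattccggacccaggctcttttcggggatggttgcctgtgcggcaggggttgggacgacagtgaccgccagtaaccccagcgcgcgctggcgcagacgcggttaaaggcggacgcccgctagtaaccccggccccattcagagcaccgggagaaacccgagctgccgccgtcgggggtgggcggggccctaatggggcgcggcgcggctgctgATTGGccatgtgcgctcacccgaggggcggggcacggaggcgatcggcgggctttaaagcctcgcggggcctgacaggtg
Scap: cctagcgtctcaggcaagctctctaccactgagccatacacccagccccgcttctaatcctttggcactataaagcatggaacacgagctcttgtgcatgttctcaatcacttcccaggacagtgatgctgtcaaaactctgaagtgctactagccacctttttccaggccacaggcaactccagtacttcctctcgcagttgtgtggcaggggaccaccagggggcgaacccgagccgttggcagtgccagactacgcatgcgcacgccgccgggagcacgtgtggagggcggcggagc
The Hmgcs1 promoter held 4 CCAAT matches and the sterol element, the Mvd promoter 2 CCAAT matches and the Srebf1 start shown 1. Of the Srebf1 starts not shown, 1 held a CCAAT match and the other did not. Neither Scap start had a match.

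Some arrays stood apart. The signal of the 5' end of Gapdh lay 8.96 below that of its 3' end on day 2 replicate 1 and 5.79 below it on day 3 replicate 2, against 2.15 to 3.82 on the other 11 arrays. The best correlation of day 2 replicate 1 with another array, over all genes, was 0.785, and that of day 2 replicate 2 was 0.936. The median over all genes was 5.69 and 6.61 on these arrays, against 7.33 to 7.54 on the other 11. The mean of 12 spike-in probe sets for poly-A control RNAs was 3.45 to 6.20 at day 0 and in the medium control and 6.99 to 12.9 in co-culture. The summed log2 level of 17 tested blood cell markers, of 20 listed, was 53.7 to 54.3 at day 0, 52.1 to 52.7 in the medium control, and 70.1 to 85.7, 96.5 to 175 and 111 to 131 on days 1, 2 and 3 of co-culture. The pan-leukocyte gene Ptprc was at the lowest value on all 5 arrays without LSK cells, and Kit did not pass the filter. All 8 tested stromal markers, of 10 listed, lay above 5 on at least 1 array without LSK cells. Their sum was 76.9 to 88.3 there and 51.0 to 78.2 in co-culture. In such bulk samples fewer stromal cells and less RNA per cell cannot be told apart, and the part of RNA quality, spike-in signal and blood cells in the values below was not tested.

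Across the 7 comparisons 1 of 28 members passed once. Mvd was higher after 1 day with LSK cells than in the medium control, a comparison in which 5.20% of all genes passed and 2.15% as higher. In that comparison 6 members had an unadjusted p under 0.05. In limma 0 members passed between the medium control and day 0 (background 0.328%), or between co-culture and day 0 on day 1 (2.15%), day 2 (2.26%) or day 3 (0.819%), with 2, 3, 6 and 1 members at an unadjusted p under 0.05. Likewise 0 passed between day 2 and day 1 or day 3 and day 1 of co-culture either (0.00819% of genes each), with 4 and 0 at an unadjusted p under 0.05. The median change of the members was -0.06, -0.05, -0.09 and 0.21 for the medium control and days 1, 2 and 3 against day 0, beside 0, 0, -0.29 and 0 for all genes. The day 2 median of the members depended on scaling, at 0.39 under quantile normalization and 0.78 with arrays centred on measured probe sets, beside -0.03 and 0.58 for all genes. It was 0.03 for day 1 against medium, where all genes had a median of 0.00214. The comparisons share the day 0, medium or day 1 arrays.

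The arrays of both groups did not overlap for many members, as for many genes. Between day 1 of co-culture and the medium control 9 members lay wholly higher (30.7% of all genes) and 11 wholly lower (31.8%). Against day 0, day 1 had 8 higher (17.7%) and 5 lower (21.3%), day 2 had 2 (6.46%) and 4 (16.2%), and day 3 had 4 (15.0%) and 2 (20.5%). The medium control had 3 higher (20.6%) and 8 lower (22.7%) than day 0. Day 2 against day 1 had 0 higher (2.50%) and 2 lower (9.89%), and day 3 against day 1 had 3 (8.28%) and 2 (11.5%).

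**Figure D1:**
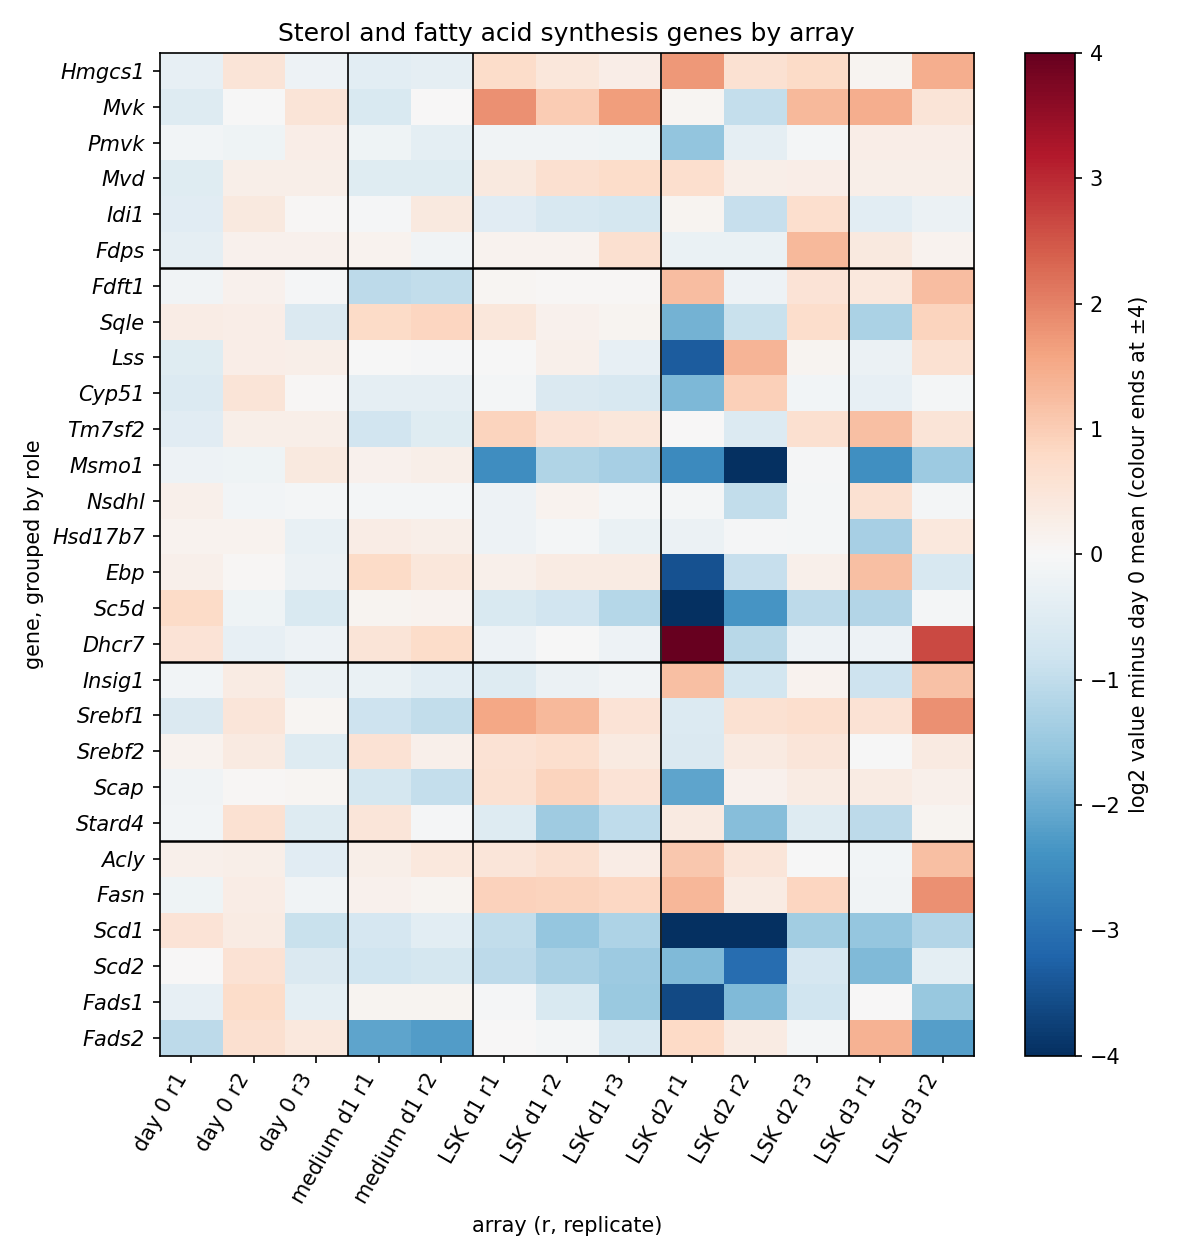
Heat map of the 28 measured members (rows, in the order mevalonate arm, squalene and sterol arm, SREBP control and sterol transfer, fatty acid synthesis and desaturation) on the 13 arrays (columns); colour gives the log2 value minus the gene's day 0 mean. Scd1, Scd2, Sc5d and Msmo1 are below their day 0 means on all 8 co-culture arrays, Scd1 and Scd2 also on the medium arrays. Dhcr7 stands out on day 2 replicate 1 and day 3 replicate 2.

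The calls changed when single arrays were left out. Without day 2 replicate 1, Mvd, Fdft1, Srebf1 and Scap passed as higher on day 1 of co-culture than in the medium control, 4 of 28 members beside 7.61% of all genes. Scap then also passed as lower in the medium control than at day 0 (background 0.582%) and as higher on day 1 of co-culture than at day 0 (4.35%). Without day 2 replicate 3, Mvk, Mvd, Tm7sf2 and Srebf1 passed as higher on day 1 than in the medium control (background 4.03%). The same removal made Msmo1, Sc5d, Scd1, Scd2 and Fads1 pass as lower on day 2 than at day 0, 5 of 28 members beside 22.6% of all genes, and Mvk, Sc5d and Scd1 as lower on day 2 than on day 1, beside 13.1%. Without day 3 replicate 1, Fasn passed as higher on day 3 than at day 0, beside 1.30% of all genes. Without either day 3 array, Srebf1 took the place of Mvd on day 1 against medium.

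Among the regulators, Srebf1, which encodes the SREBP-1 factors that favour fatty acid genes, had the largest rise in mean from medium to day 1 of all members. It measured 5.63, 6.70 and 6.29 at day 0, 5.37 and 5.21 in the medium control, 7.76, 7.50 and 6.77 on day 1, 5.67, 6.82 and 6.89 on day 2 and 6.79 and 8.02 on day 3 of co-culture. All 3 day 1 arrays lay above the day 0 and the medium arrays, and the medium arrays lay below all the others. The day 1 mean of 7.34 ± 0.51 (SD, n = 3) stood against 5.29 ± 0.11 (n = 2) in the medium control. That is a log2 change of 2.05 ± 0.52 (SE), with adjusted p = 0.0532, and adjusted p = 0.0193 without day 2 replicate 1. Against day 0 the change was 1.14 ± 0.46 (adjusted p = 0.244), and the medium control differed from day 0 by -0.92 ± 0.52 (0.69).

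Scap encodes the escort that senses sterol and moves SREBP to the Golgi. Its values were 9.91, 10.10 and 10.11 at day 0, 9.35 and 9.08 in the medium control, 10.65, 10.93 and 10.60 on day 1, 7.92, 10.21 and 10.35 on day 2 and 10.38 and 10.26 on day 3. Apart from day 2 replicate 1, every co-culture array lay above every day 0 and medium array. Day 1 exceeded the medium control by 1.51 ± 0.60 (adjusted p = 0.185). Without day 2 replicate 1 the same difference had an SE of 0.16 and adjusted p = 0.00226. In that fit Scap differed from day 0 by -0.83 ± 0.16 in the medium control (adjusted p = 0.0464) and by 0.69 ± 0.14 on day 1 (adjusted p = 0.0215), so the day 0 level lay between the other 2 groups.

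Srebf2, the gene of the SREBP form that drives sterol genes, stayed within 5.41 to 6.67 on all 13 arrays. It differed by 0.15 ± 0.37 between day 1 and the medium control, and its second probe set by -0.03. Insig1, the retention protein and itself an SREBP target, differed by 0.03 ± 0.62. Stard4, which carries cholesterol between membranes, was 6.14, 5.21 and 5.64 on day 1 against 7.11 and 6.61 in the medium control (-1.20 ± 0.61, adjusted p = 0.311). Its other probe set above a mean of 5 gave -1.98. Those arrays did not overlap, and Stard4 is among the 11 members wholly lower.

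In the mevalonate arm, Mvd encodes the decarboxylase that makes isopentenyl pyrophosphate. It measured 3.67, 4.42 and 4.42 at day 0, 3.67 and 3.67 in the medium control, 4.56, 4.81 and 4.91 on day 1, 4.83, 4.42 and 4.43 on day 2 and 4.42 and 4.42 on day 3. The probe set took its own lowest value on 3 arrays, both medium arrays among them, and 6 arrays agreed within 0.01 at 4.42. The rise from medium to day 1 was 1.09 ± 0.26, with adjusted p = 0.0473. The call was lost when any of 9 of the 13 arrays was left out, with adjusted p up to 0.278. The arrays whose removal kept it were day 0 replicate 1 and each of the 3 day 2 arrays. Averaging its probe sets gave 0.63, and its probe set, whose name ends in _s_at, can hold probes that match further transcripts.

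Mvk, the mevalonate kinase gene, was 4.81, 5.30 and 5.84 at day 0, 4.70 and 5.35 in the medium control, 7.13, 6.35 and 6.99 on day 1, 5.40, 4.35 and 6.62 on day 2 and 6.76 and 5.84 on day 3. The day 1 arrays lay above all 5 arrays without LSK cells, and day 2 spread over most of the range. Day 1 exceeded the medium control by 1.80 ± 0.62 (adjusted p = 0.127) and day 0 by 1.50 ± 0.55 (adjusted p = 0.196). Hmgcs1, the HMG-CoA synthase gene, exceeded the medium control by 0.88 ± 0.46 on day 1 (adjusted p = 0.329) in the probe set that represents it. Idi1, the isomerase gene, differed by -0.77 ± 0.43 (adjusted p = 0.358), and the groups did not overlap. A second Idi1 probe set gave -0.23, and in it the groups overlapped. Pmvk and Fdps, which encode phosphomevalonate kinase and the farnesyl pyrophosphate synthase, differed by 0.13 ± 0.38 and 0.31 ± 0.45. In this arm 5 of 6 changes were positive and 1 passed, with Hmgcs1 counted by the probe set that represents it, against which its other 3 gave -1.32, -1.43 and -1.89.

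**Figure D2:**
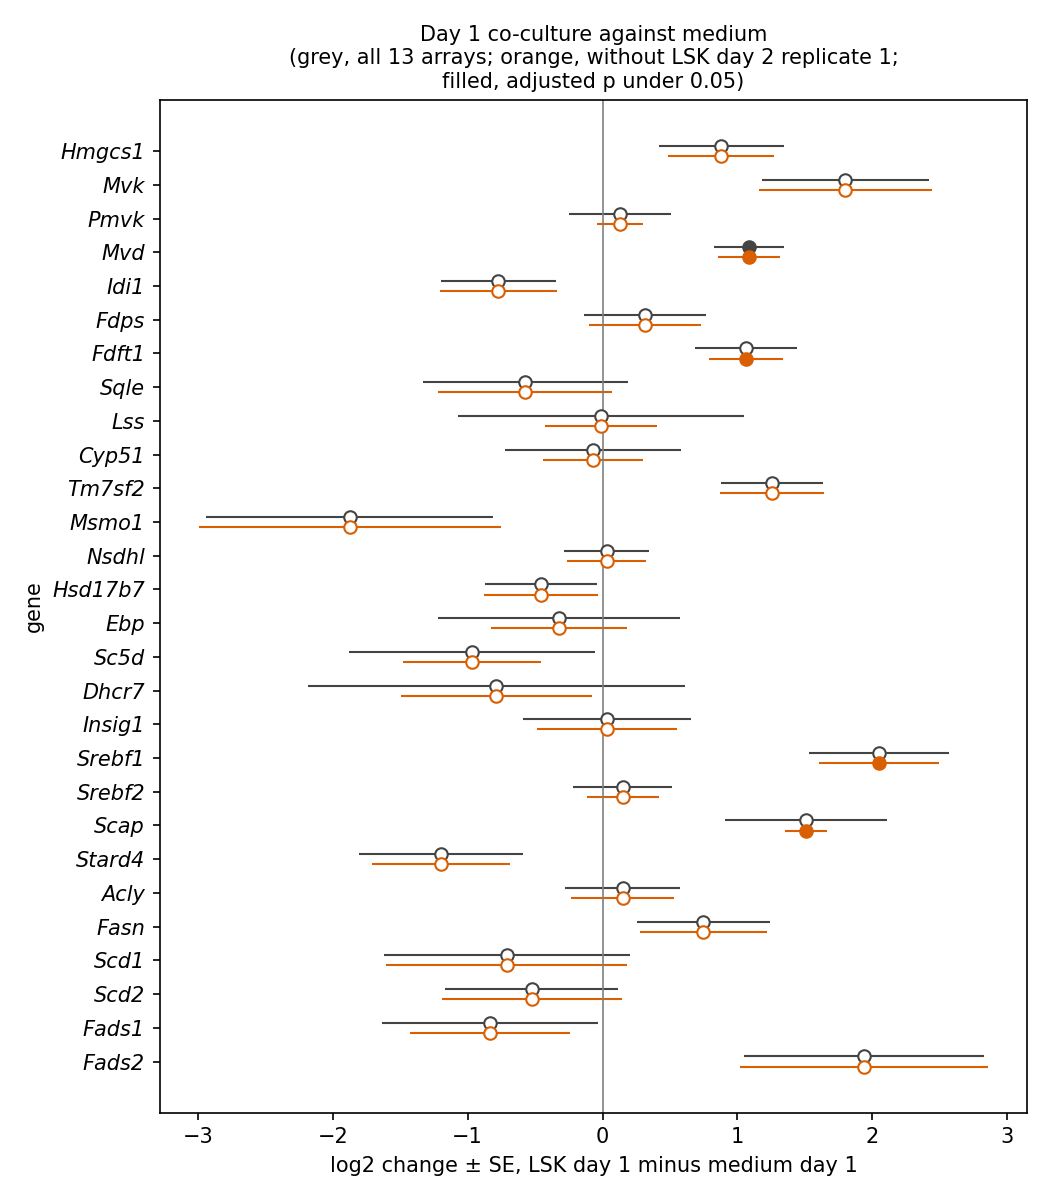
Log2 change ± SE of each of the 28 members (rows) between day 1 of co-culture (n = 3) and the medium control (n = 2), in the fit of all 13 arrays (grey) and without day 2 replicate 1 (orange); filled points have an adjusted p under 0.05. Mvd is filled in both fits, and Fdft1, Srebf1 and Scap only in the fit without that array.

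The squalene and sterol arm did not move as a block, with 3 positive and 8 negative changes between medium and day 1 of co-culture. Fdft1, which encodes squalene synthase, measured 10.31, 10.62 and 10.42 at day 0, 9.41 and 9.48 in the medium control, 10.52, 10.50 and 10.50 on day 1, 11.68, 10.24 and 10.99 on day 2 and 10.86 and 11.68 on day 3. The medium arrays were the lowest of all 13, and day 1 sat within the day 0 range. Day 1 exceeded the medium control by 1.06 ± 0.38 (adjusted p = 0.144, and 0.0341 without day 2 replicate 1) and day 0 by 0.06 ± 0.34. A second probe set of Fdft1 gave 0.24 between medium and day 1 and -0.80 between day 0 and day 1.

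Tm7sf2, a sterol C14 reductase gene, was 3.95, 4.64 and 4.64 at day 0, 3.65 and 3.93 in the medium control, 5.31, 4.97 and 4.88 on day 1, 4.43, 3.87 and 5.05 on day 2 and 5.60 and 4.92 on day 3. The day 1 and day 3 arrays lay above every array without LSK cells. Day 1 exceeded the medium control by 1.26 ± 0.38 (adjusted p = 0.0889).

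Other steps were lower in co-culture without passing. Sc5d, the sterol C5 desaturase gene, measured 8.49, 7.57 and 7.13 at day 0, 7.84 and 7.87 in the medium control, 7.12, 6.96 and 6.58 on day 1, 2.85, 5.38 and 6.67 on day 2 and 6.56 and 7.65 on day 3. Day 2 lay below day 0 without overlap, with a change of -2.76 ± 0.82 (adjusted p = 0.0935). Its replicates 1 and 2 were the lowest of all 13 arrays, and these also had the lowest medians over all genes. Between medium and day 1 the Sc5d change was -0.97, and -2.41 in its second probe set. Msmo1, the sterol C4 oxidase gene, measured 7.73, 7.77 and 8.33 at day 0, 8.10 and 8.17 in the medium control, 5.46, 6.73 and 6.61 on day 1, 5.40, 3.24 and 7.90 on day 2 and 5.49 and 6.51 on day 3. Day 2 replicate 3 kept the day 0 level and the other 7 co-culture arrays lay below every array without LSK cells. The changes against day 0 were -1.68 ± 0.95, -2.43 ± 0.95 and -1.95 ± 1.06 on days 1, 2 and 3 (adjusted p = 0.428, 0.154 and 0.469).

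In the probe sets that represent them, the remaining sterol genes showed smaller day 1 differences from the medium control. Sqle (squalene epoxidase) gave -0.57 ± 0.76, Lss (lanosterol synthase) -0.01 ± 1.06, Cyp51 (the C14 demethylase) -0.07 ± 0.65, and Nsdhl (a C4 decarboxylating dehydrogenase) 0.03 ± 0.32. Hsd17b7 (the partner ketoreductase) gave -0.46 ± 0.41, Ebp (the sterol isomerase) -0.32 ± 0.90 and Dhcr7 (the last reductase of the pathway) -0.79 ± 1.40. Second probe sets gave -1.38 for Cyp51, -0.96 for Hsd17b7 and -0.15 for Lss. For those of Cyp51 and Hsd17b7 the day 1 and medium arrays did not overlap. The SE was 0.65 or more for Sqle, Lss, Cyp51, Ebp and Dhcr7. Srebf1 did not pass at 2.05 ± 0.52, while Mvd passed at 1.09 ± 0.26. A difference as large as that of Srebf1 could thus go uncalled in the genes of larger SE. Nsdhl agreed within 0.01 on 7 arrays, at 5.75.

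**Figure D3:**
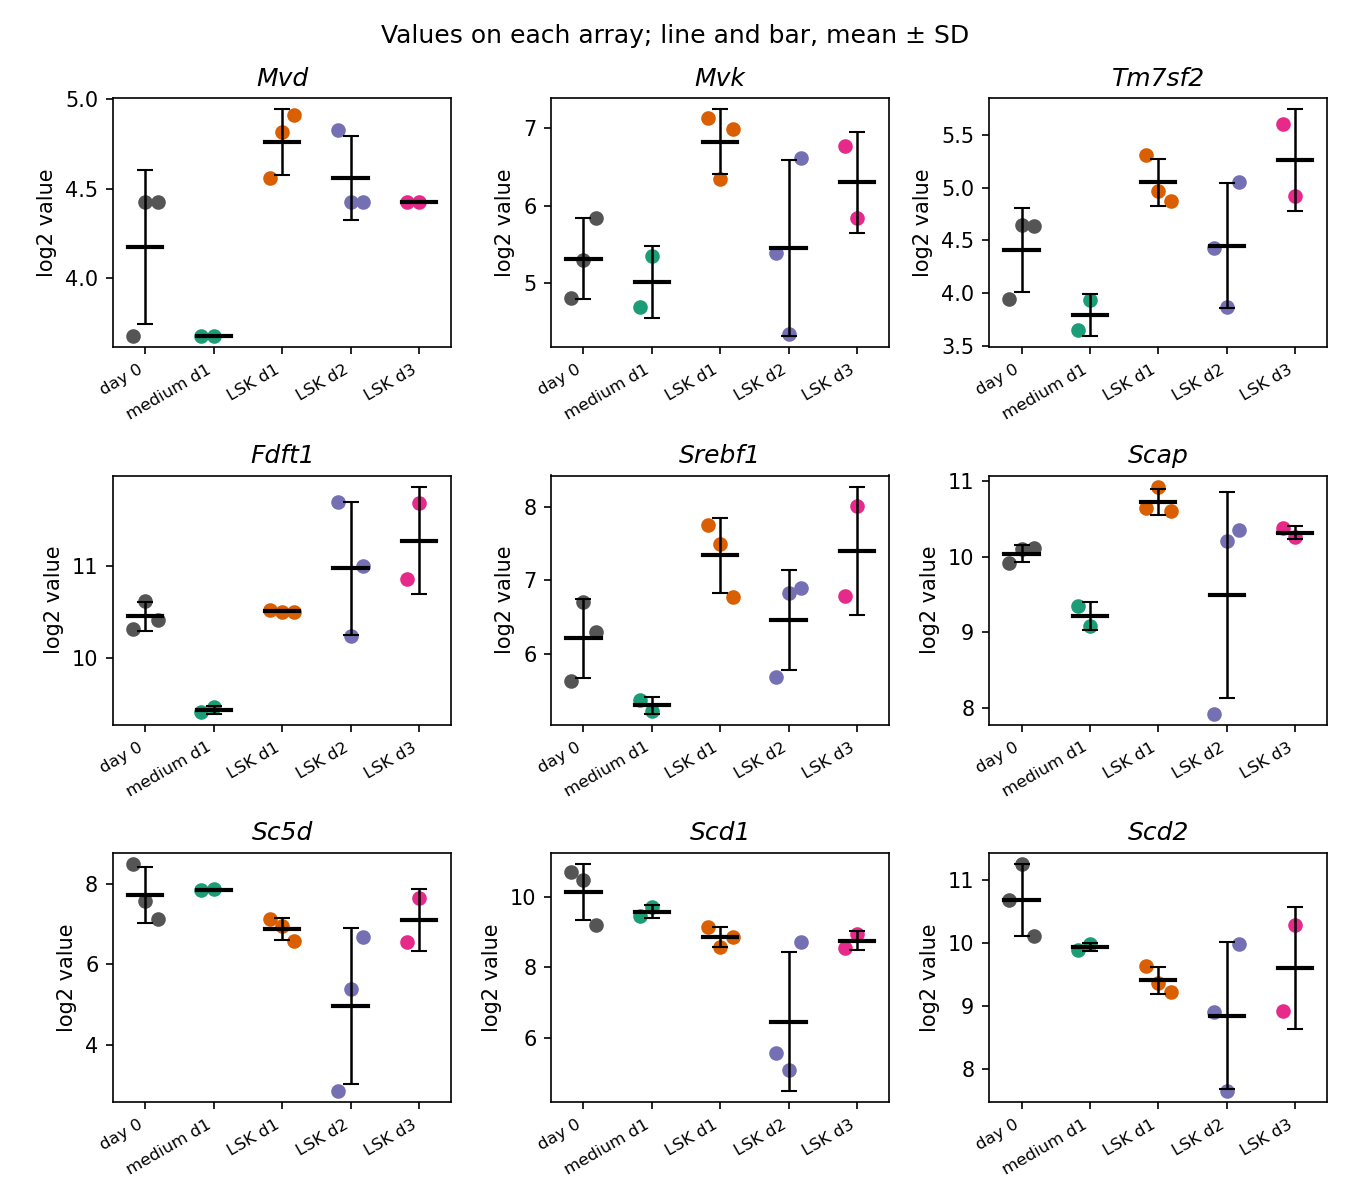
Log2 value on each array (points, ordered by replicate number within a group) for 9 members in the 5 groups, with the mean (line) and SD (bar); each panel has its own vertical axis. For Mvd, Mvk, Tm7sf2, Fdft1, Srebf1 and Scap the medium control has the lowest mean, and all Scd1 values in co-culture lie below those without LSK cells.

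Of the 6 fatty acid genes 0 passed in any comparison of the full fit. Scd1, the stearoyl-CoA desaturase gene that makes monounsaturated fatty acids, measured 10.68, 10.46 and 9.21 at day 0, 9.45 and 9.70 in the medium control, 9.15, 8.58 and 8.87 on day 1, 5.58, 5.12 and 8.72 on day 2 and 8.56 and 8.96 on day 3. All 8 co-culture arrays lay below all 5 others, the nearest values being 9.15 and 9.21. Scd1 was the only member so separated in either direction, a split looked at after the values were seen, and 7.69% of all genes lay wholly lower. Against day 0 the changes were -1.25 ± 0.82 on day 1 (adjusted p = 0.512), -3.64 ± 0.82 on day 2 (adjusted p = 0.0528) and -1.36 ± 0.91 on day 3 (adjusted p = 0.584). Without day 2 replicate 3 the day 2 change was -4.77, with adjusted p = 3.01e-04. It was -3.20 without replicate 1 (adjusted p = 0.0947), -2.96 without replicate 2 (0.13) and -1.39 without both (0.398). A second, dimmer Scd1 probe set stayed within 5.01 to 6.11 on all arrays.

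Scd2, another stearoyl-CoA desaturase gene, was 10.68, 11.25 and 10.10 at day 0, 9.88 and 9.98 in the medium control, 9.64, 9.36 and 9.22 on day 1, 8.90, 7.64 and 9.99 on day 2 and 8.92 and 10.28 on day 3. The medium control, day 1 and day 2 each lay below all day 0 arrays. The day 2 change from day 0 was -1.83 ± 0.57 (adjusted p = 0.104). Fads1, the delta-5 desaturase gene, differed from day 0 by -2.06 ± 0.72 on day 2 (adjusted p = 0.124) and ranged from 5.66 to 9.99. Fads2, the delta-6 desaturase gene, was 4.15 and 4.04 in the medium control against 5.21 to 6.91 at day 0 (-2.18 ± 0.89, adjusted p = 0.463). It lay at 5.63 to 6.29 on day 1.

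Fasn, the fatty acid synthase gene, measured 7.43, 7.88 and 7.46 at day 0, 7.77 and 7.69 in the medium control, 8.51, 8.48 and 8.43 on day 1, 8.91, 7.93 and 8.46 on day 2 and 7.46 and 9.41 on day 3. Days 1 and 2 lay above all 5 arrays without LSK cells, and day 3 was divided. The day 1 change from day 0 was 0.89 ± 0.44 (adjusted p = 0.351). Acly, which supplies cytosolic acetyl-CoA from citrate, differed from day 0 by 0.47 ± 0.38 on day 1 in the probe set that represents it.

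Probe sets of the same gene disagreed. Of the 28 members, 12 had at least 2 probe sets with a mean above 5, and in 4 of these the signs differed between day 0 and day 1 (Acly, Fdft1, Hmgcs1 and Scd1). For Hmgcs1 the probe set used rose in mean by 0.48 between day 0 and day 1, while the other 3 gave -1.70, -1.78 and -2.52. For Acly the probe set used gave 0.47 and the others -1.41 and -1.56. Against the medium control the signs differed for Acly, Hmgcs1, Scd1 and Srebf2. Between day 2 or day 3 and day 0 they differed for 6 of the 12 each, and in both cases Acly, Fdft1, Hmgcs1 and Idi1 were among them. The direction of these genes is not settled by these arrays. For Fdft1, Acly, Hsd17b7 and Fads2 the probe set used ends in _x_at, a class whose probes can match further transcripts.

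**Figure D4:**
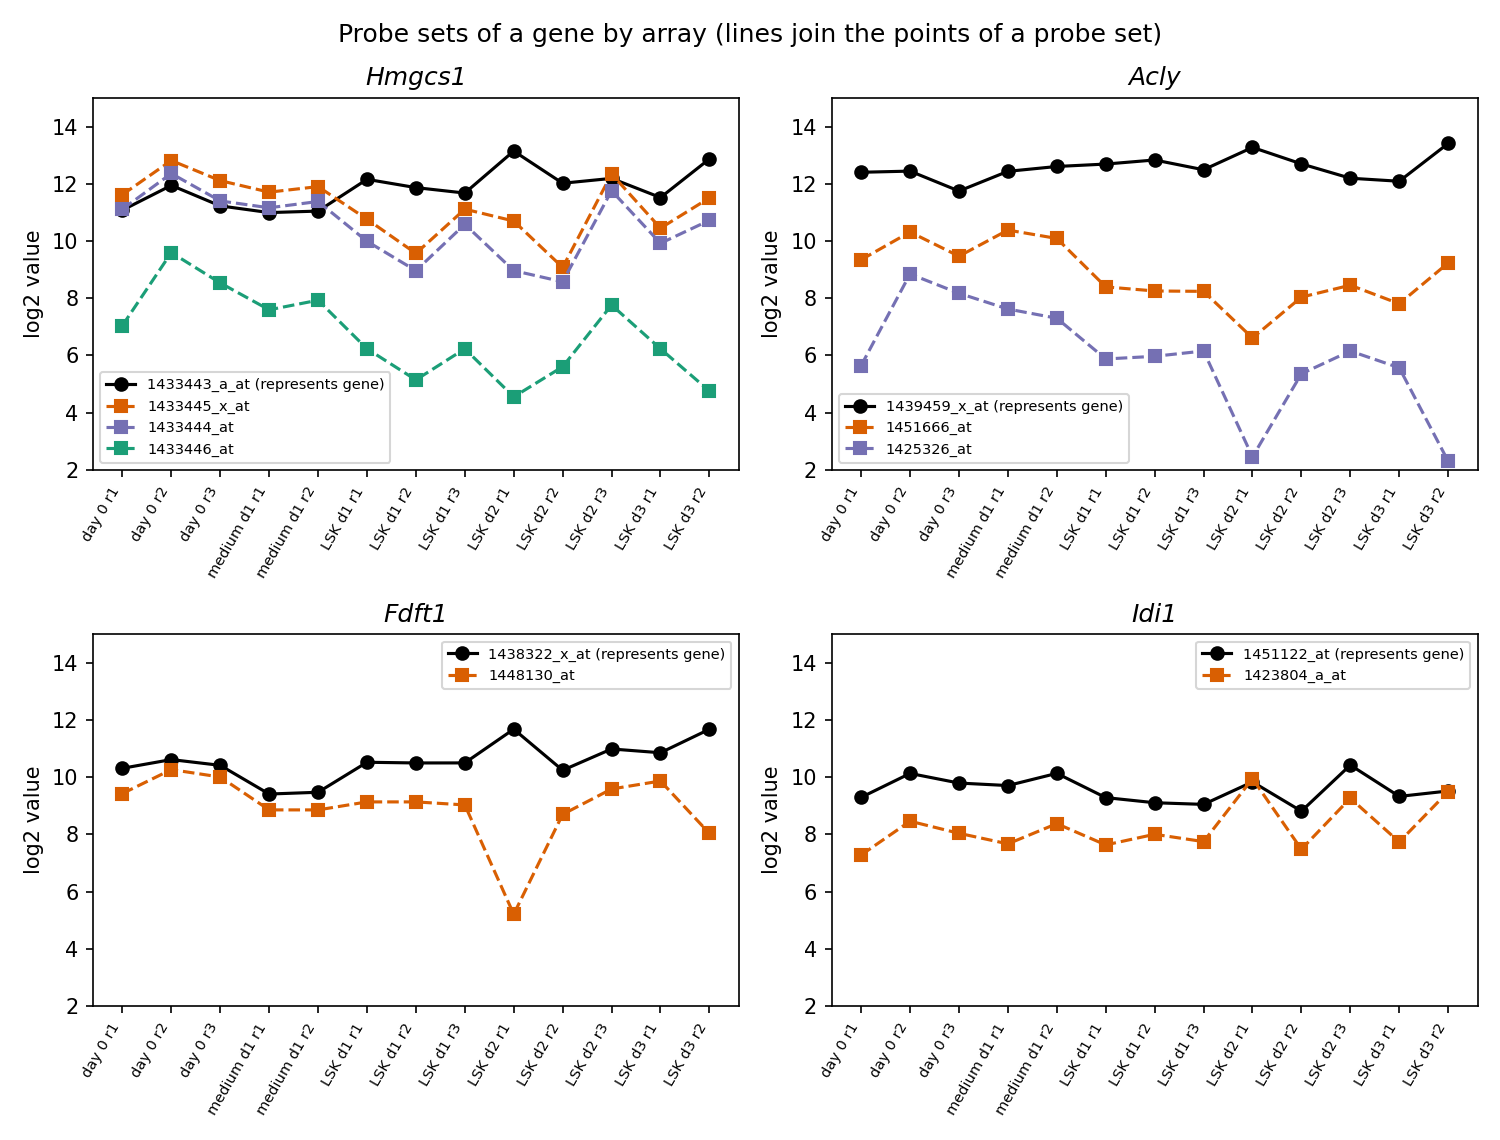
Log2 value of every probe set with a mean above 5 for Hmgcs1, Acly, Fdft1 and Idi1 on the 13 arrays (horizontal axis, in group order); the black line is the probe set that represents the gene. For Hmgcs1 and Acly the black line is flat or higher in co-culture. Their other probe sets are lower in mean than at day 0, though not on every array. The Fdft1 probe sets part most on day 2 replicate 1.

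A set of 6 members shared a further pattern that was noticed after their values were seen. Hmgcs1, Fdft1, Dhcr7, Insig1, Acly and Fasn had their 2 highest values on day 2 replicate 1 and day 3 replicate 2. Of all genes, 7.43% had them there. The count rests on the probe set that represents each gene: on day 2 replicate 1 a second Fdft1 probe set was at its lowest value, 5.21, and a second Acly probe set likewise, 6.61, and the other Hmgcs1 probe sets were not at their highest on either array. Dhcr7 was 7.87 and 6.13 on these arrays and 2.37 to 4.24 on the other 11. Insig1 was 9.31 and 9.29 there, against 7.28 to 8.44. The same arrays had the largest Gapdh 3' to 5' difference, the highest spike-in means (12.9 and 12.1) and the highest blood marker sums (175 and 131), and the part of these in the pattern was not tested.

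Other genes of the pathways were taken from 3 further lists. For other steps of sterol synthesis and SREBP control, 11 genes were tested (15 listed). On day 1 of co-culture 0 were higher (2.15% of all genes) and 2 lower (3.05%) than in the medium control. Mbtps2, the gene of the site-2 protease that frees SREBP, fell from 11.83 and 11.98 to 10.31, 9.92 and 10.84 (-1.55 ± 0.32, adjusted p = 0.0321). Rnf139, which encodes an endoplasmic reticulum ubiquitin ligase that binds INSIG, fell from 12.51 and 12.44 to 9.26, 9.21 and 9.48 (-3.15 ± 0.62, adjusted p = 0.0273). Day 0 lay below the medium control for both, at 11.32 to 11.82 and 11.43 to 11.85, with medium minus day 0 at 0.34 ± 0.32 and 0.90 ± 0.62 and neither past the threshold. Day 1 differed from day 0 by -1.21 and -2.25 (adjusted p = 0.068 and 0.0702). The Mbtps2 call kept an adjusted p under 0.05 in 7 of 13 removals of an array (0.0131 to 0.239 over all), and the Rnf139 call in 8 of 13 (0.00387 to 0.218).

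For other steps of fatty acid synthesis and elongation, 16 genes were tested (17 listed). On day 1, 2 were higher (0.828% of all genes) and 0 lower (1.33%) than at day 0. Acaca, the acetyl-CoA carboxylase gene, rose from 6.41, 6.72 and 6.17 to 8.36, 7.94 and 8.07 (1.69 ± 0.36, adjusted p = 0.047). The medium control lay between these groups, at 7.38 and 7.42. Elovl1, an elongase gene for very long chains, rose from 10.23, 9.72 and 10.42 to 11.66, 12.08 and 11.90 (1.76 ± 0.38, adjusted p = 0.0497), and its other 3 probe sets gave 1.46 to 1.76. The Acaca and Elovl1 calls held in 5 and 3 of the 13 removals, with adjusted p of 0.0145 to 0.165 and 0.00382 to 0.192. None of 8 tested genes for sterol export, storage and the LXR response (12 listed) passed in any comparison of the full fit. There the lowest p belonged to Osbp, an oxysterol-binding protein gene (-1.41 ± 0.34 between day 0 and day 3, adjusted p = 0.104), and to Apoe, which was at its lowest value on 9 of 13 arrays (0.67 ± 0.17 between day 0 and day 3, adjusted p = 0.115). In the comparisons not named here, 0 genes of the 3 lists passed in limma, with 0 to 6 per list at an unadjusted p under 0.05. These counts also moved without day 2 replicate 1. Of the other sterol genes, 4 then passed between day 0 and day 1 (1 higher and 3 lower: Insig2, Mbtps2, Rnf139 and Dhdds), beside 10.6% of all genes. From the same list, 3 were lower on day 3 than at day 0 (4.53% of all genes lower), and 3 passed between medium and day 1 (17.2%). Of the other fatty acid genes, 3 passed between medium and day 1 (17.2%) and 2 between day 0 and day 3 (7.69%). Elovl1 also passed as higher on day 2 than at day 0 (0.926% of all genes higher). On all arrays its day 2 change from day 0 was 1.56, with 1.47, 1.88 and -2.60 in its other probe sets. Apoe then passed as higher and Osbp as lower on day 3 than at day 0 (3.16% and 4.53%).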

How the data were processed

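The deposited table holds 1 log2 value per probe set and array, made by the authors, for 45101 probe sets on 13 arrays. Per the submitters' processing notes the tools were RMA and GCRMA, with no version and no role given, and log2 is read from the range of 2.28 to 15.7. The values were used as deposited. After 64 control probe sets were set aside, 34945 had 1 gene symbol, 932 several and 9160 none. Kept were probe sets that exceeded 2.38, the median of all values, on 2 arrays or more, and the one with the highest mean stood for a gene. All arrays entered 1 limma 3.58.1 fit (R 4.3.3; lmFit, contrasts, eBayes) of group means, with Benjamini-Hochberg adjustment over 12205 genes in each of 7 comparisons. The test was tested on simulated data. Figures used Python 3.11.15 and matplotlib 3.10.9. All members are described; every-array values and full statistics went to members that passed and to the 2 with the lowest p in each role group, plus Fdft1, Fasn, Msmo1 and others chosen after their values were seen. Of other lists, genes that passed are named, else the 2 with the lowest p. The members and lists were chosen with earlier results of these data known. Alternatives changed filter, scaling, probe set choice, variance model, array weights, groups fitted and replicate block, or left out arrays. The number of arrays limits the precision.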

Additional observations from a re-analysis of the deposited data

How the results depend on the processing

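Counts are members past the threshold, out of 28. For day 1 of co-culture against the medium control, the count of 1 became 0 without a filter, with values above 5 required in at least 2 arrays (where Mvd was not tested), with centring on measured probe sets and with eBayes trend and robust. It was 2 under quantile normalization, 17 with array weights and 14 with the compared groups only, where 5.67%, 52.6% and 37.5% of all genes passed. With array weights the counts were 7 for the medium control, 8 for day 1 and 4 for day 2 against day 0, and 1 for day 2 against day 1 (all genes 29.4%, 29.4%, 20.8% and 10.4%). The compared groups alone gave 2 for day 1 against day 0 (14.6%). The filter at 5 gave 1 for day 2 against day 0, Scd1 (2.63%). Without the 2 arrays of high 3' to 5' ratio, an alternative chosen after seeing the data, the counts were 6 for day 1 against medium, 2 for day 1, 1 for day 3 and 1 for the medium control against day 0 (21.1%, 13.6%, 5.65% and 3.04%). Without day 2 replicates 1 and 2, also chosen then, they were 7, 3, 1 and 1 (24.2%, 17.3%, 14.3% and 2.61%).

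Leaving out 1 array at a time gave 0 to 4 for day 1 against medium, 0 to 1 for the medium control, 0 to 1 for day 1, 0 to 5 for day 2 and 0 to 1 for day 3 against day 0, 0 to 3 for day 2 against day 1 and 0 for day 3 against day 1. The 4 came without day 2 replicate 1 or 3, and the 5 and the 3 without day 2 replicate 3. The changes between medium and day 1 of Mvd, Mvk, Tm7sf2, Fdft1, Srebf1 and Scap, and between day 0 and day 2 of Scd1, Scd2 and Sc5d, kept their sign under every alternative run. Others did not: between day 0 and day 2, Scap went from -0.55 to 0.24, Dhcr7 from 1.01 to -0.67 and Lss from -0.63 to 0.72 without day 2 replicate 1, and Mvk from 0.14 to -0.44 without replicate 3. With the replicate number as a block, the count for day 1 against medium fell to 0, and the other 6 comparisons stayed at 0. Deviations from group means of same-numbered arrays correlated above 0.1 in 8 of 23 pairs (-0.37 to 0.26). Arrays of different number were not compared in this way, so these values cannot tell if the numbers pair the samples. The day 2 minus day 0 median over all genes was -0.29 as deposited, 0.58 after that centring and -0.03 under quantile normalization.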
